A study of Homo sapiens with 24 samples.

Results

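The HOX genes encode the homeodomain transcription factors that give positions along the body axis their identity, and in humans they lie in 4 clusters. They were taken here as every row of the count table whose name is HOX, then A, B, C or D, then a number, which left out antisense and other suffixed transcripts. The rule found 39 genes among the 28278 of the table. HOXA holds 11 of them on chromosome 7 (hg38, 27092995 to 27200091), HOXB 10 on chromosome 17 (48528526 to 48728750), HOXC 9 on chromosome 12 (53938831 to 54056030) and HOXD 9 on chromosome 2 (176092721 to 176190907). The cells were TYUC-1, a human cancer cell line from a neuroendocrine carcinoma of the esophagus, grown in suspension. A pair of engineered lines carried an inducible TAp63 (genotype i-TAp63) or an inducible DNp63 (i-DNp63), which are isoforms of the squamous lineage factor TP63. Doxycycline at 1 ug/ml was given for 0, 1, 3 or 6 days of a 6-day course and DMSO for the remaining days, and each of the 8 line and day groups had 3 libraries. The submitters call the 3 libraries biological replicates without saying what separated them, so the spread behind each p-value is that of these libraries and may be partly technical.

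A treatment label on each sample also names EPZ-6438, which blocks the enzyme EZH2, with the same number of days as doxycycline, whereas the titles, the induction labels and the design name p63 induction only. Whether the inhibitor was given is not settled by them, so induction and inhibitor cannot be told apart in any comparison of days. Whether either line is a single clone is not given in the sources used here, and no line that received doxycycline without a p63 construct was analysed here. TP63 itself measured 2.90 to 4.94 CPM (counts scaled to a common library size) at day 0 and, outside 1 library, 326 to 1033 at days 1 to 6. Of the markers of the labelled cell type, ENO2 (452 to 601 CPM) and UCHL1 (78.5 to 140) were present in those 23 libraries, while CHGA and INSM1 did not exceed 1.11 and 0.778 CPM and GRP had no counts at day 0. Totals ran from 1530847 to 22019974 counts, and the second lowest was 6375963. The lowest belonged to replicate 3 of DNp63 day 1, which had 68.8 CPM of TP63 and whose HOX and marker values stood apart from the other 23 libraries as described with HOXB9, so results that rest on it are given with and without it.

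HOX clusters are ordered: genes numbered low are used toward the head and genes numbered high toward the tail and in the limbs and genitalia, and a gene's number (its paralog group) marks the same relative position in every cluster. In adult cells the pattern set in the embryo is usually kept. Polycomb complexes, among them PRC2 with its catalytic subunit EZH2, hold unused clusters silent by trimethylating lysine 27 of histone H3, and trithorax (MLL) complexes keep used ones open, which is why an EZH2 inhibitor on a label makes these genes of interest. HOX proteins bind DNA with cofactors of the PBX and MEIS families.

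The windows around the start of 4 genes are shown because they set a transcribed and a nearly silent member side by side. HOXD13, HOXD12 and HOXD11 are neighbours on chromosome 2, and the middle gene measured 0.439 CPM at day 0 between a neighbour at 26.2 and one at 15.9. HOXB1 had no count at day 0. Each window runs from 250 bases before to 50 bases after the RefSeq start (GRCh38.p14), which for these genes is the start that the count table uses, and CG dinucleotides, the sites of DNA methylation and of CpG islands, are in capitals.
HOXD13, chr2:176092471-176092770, plus strand: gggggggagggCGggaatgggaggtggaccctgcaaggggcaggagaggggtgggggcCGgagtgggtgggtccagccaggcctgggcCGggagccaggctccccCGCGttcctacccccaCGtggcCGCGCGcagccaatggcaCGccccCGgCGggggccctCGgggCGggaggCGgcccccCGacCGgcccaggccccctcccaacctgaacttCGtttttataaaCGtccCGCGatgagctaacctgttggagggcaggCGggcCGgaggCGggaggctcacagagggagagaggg
HOXD12, chr2:176099545-176099844, plus strand: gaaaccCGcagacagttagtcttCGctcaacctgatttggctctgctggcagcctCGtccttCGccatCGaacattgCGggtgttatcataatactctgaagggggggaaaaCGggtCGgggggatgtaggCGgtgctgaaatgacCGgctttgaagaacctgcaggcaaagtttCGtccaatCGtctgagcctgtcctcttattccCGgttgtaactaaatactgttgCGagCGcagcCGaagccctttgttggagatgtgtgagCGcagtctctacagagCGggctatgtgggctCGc
HOXD11, chr2:176107030-176107329, plus strand: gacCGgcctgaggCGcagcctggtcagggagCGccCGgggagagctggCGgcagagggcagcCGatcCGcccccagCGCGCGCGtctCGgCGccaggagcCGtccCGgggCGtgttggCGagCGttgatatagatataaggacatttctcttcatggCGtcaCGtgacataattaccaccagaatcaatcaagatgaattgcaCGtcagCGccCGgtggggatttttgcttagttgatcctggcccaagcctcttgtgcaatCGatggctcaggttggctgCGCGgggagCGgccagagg
HOXB1, chr17:48530962-48531261, minus strand: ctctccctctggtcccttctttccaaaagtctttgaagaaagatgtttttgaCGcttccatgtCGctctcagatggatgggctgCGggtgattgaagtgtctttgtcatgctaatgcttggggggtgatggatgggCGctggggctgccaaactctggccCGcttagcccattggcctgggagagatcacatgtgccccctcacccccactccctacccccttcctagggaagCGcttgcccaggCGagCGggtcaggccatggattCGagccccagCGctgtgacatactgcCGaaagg
The windows hold 24, 19, 27 and 11 CG dinucleotides in this order. Over all 35116 RefSeq windows of this length the median was 14, the 90th percentile 37, and 96.0% held at least 1. RefSeq windows were found for 20 of the 39 members, 27 windows in all, with a median of 22 and a range of 0 to 44 (HOXA13). The p53-family half-site was searched as the pattern RRRCWWGYYY (R is A or G, W is A or T, Y is C or T), which covers both strands. It was in 2 of these 27 windows (7.41%) against 6.63% of all windows. Only the sequence was matched, and binding was not tested. In these 4 windows the 2 transcribed genes held more CG dinucleotides than the 2 nearly silent ones, while HOXD11 held more than HOXD13 at a lower level. This order did not hold in all other member windows. HOXC4 (161 CPM at day 0) held 15 and HOXA11 (39.3 CPM) held 13, fewer than the 19 of HOXD12. HOXC4 shares its start with HOXC5 and HOXC6 and was counted only past their ends, so its level cannot be tied to this window. Other transcribed members held more than HOXD12, such as HOXA13 with 44. A relation between CG content and level was not tested.

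How a fragment was counted decides which members have a level at all. The authors counted fragments over whole transcript spans, introns included and without strand, and a fragment that touched more than 1 gene was given to neither, so bases shared with another gene of the table could not be counted. By this reckoning 9 members have no countable base and all 9 had 0 counts in every library. HOXA5 and HOXA6 lie under HOXA-AS3, HOXA9 under HOXA10-HOXA9, HOXA10 under HOXA10-AS and HOXA10-HOXA9, HOXB4 under HOXB3, HOXB5 and HOXB6 under HOXB-AS3, and HOXC5 and HOXC6 under HOXC4 and each other. Among all genes of the table, 4379 have no countable base and 4364 of those had 0 counts. The 0 of these 9 genes therefore says nothing about their expression. Of the other 30 members, 20 have every base countable, and the share ran from 25.26% in HOXA7 and 52.81% in HOXC4 to 92.71% in HOXC10 among the remaining ones. The transcripts that cover the uncounted genes were themselves measured: HOXA-AS3 held 35.6 to 52.4 CPM and HOXA10-HOXA9 17.1 to 25.5 CPM in 23 libraries, while HOXB-AS3 did not exceed 0.428.

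Before induction TYUC-1 expressed genes of all 4 clusters, and HOXB stood lowest. At a mean of at least 1 CPM over the 6 day 0 libraries, 25 of the 39 members were detected (64.1%, against 49.0% of the 28278 genes), and 18 reached 10 CPM. HOXC, the trunk and limb cluster that also holds HOTAIR, had all 7 countable members above 10 CPM, from HOXC11 at 12.3 to HOXC4 at 161 CPM. HOXA had all 7 countable members at 1 CPM or more, from HOXA2 at 1.62 to HOXA11 at 39.3 CPM, with a median of 15.9. HOXD had 8 of 9, from HOXD12 at 0.439 to HOXD8 at 35 CPM, with a median of 9.12. HOXB had 3 of 7, and HOXB7 at 14.9 CPM was the only member of it above 10. HOXB9 passed with a mean of 1.55 CPM only through the libraries numbered 1, at 3.70 and 4.28, and the others held 0.908 or less. By position, 9 of 11 countable genes of paralog groups 1 to 4, 4 of 5 of groups 5 to 8 and 12 of 14 of groups 9 to 13 reached 1 CPM. The members below 1 CPM were HOXB1, HOXB2, HOXB8, HOXB13 and HOXD12. HOXD12 was the exception within a cluster whose other members all passed 1 CPM.

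HOXC10 and HOXA7 had the highest levels per length. In CPM per countable kilobase at day 0 (mean ± SD, n = 6 libraries over both lines) the 10 highest were HOXC10 at 17.9 ± 1.99, HOXA7 at 17.7 ± 1.38, HOXD8 at 11.7 ± 2.15, HOXA11 at 9.64 ± 1.02, HOXD13 at 8.12 ± 0.592, HOXA4 at 7.95 ± 1.74, HOXC4 at 7.78 ± 0.727, HOXC9 at 7.05 ± 0.848, HOXC8 at 7.01 ± 0.297 and HOXD11 at 6.42 ± 1.48. Fragments that reach past the edge of a countable stretch make this scale uncertain for partly covered genes, and HOXA7, with 0.747 countable kilobases, is the most affected of the 10. Among the 20 fully countable members the order of those reported here was HOXD8, HOXA11, HOXD13, HOXC9, HOXC8, HOXD11, HOXD4, HOXC12, HOXD10, HOXA13, HOXB7, HOXD9, HOXA2, HOXD3, HOXB9, HOXD12, HOXB8, HOXB13 and HOXB1. Of the 19 pairs of neighbours among all 20, 17 overlapped over their 6 libraries. The gaps lay between HOXB7 (3.95 ± 1.01) and HOXD9 (1.79 ± 0.222) and between HOXD9 and HOXA2 (0.693 ± 0.241). HOXA13 and HOXD13, the last genes of their clusters, measured 5.18 ± 0.528 and 8.12 ± 0.592 on this scale, whereas HOXB13, the last of HOXB, measured 0.0170 ± 0.0200. Intronic fragments count in full here, so a gene with a long intron such as HOXD3 or HOXB3 is not on the scale of spliced RNA.

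**Figure D1:**
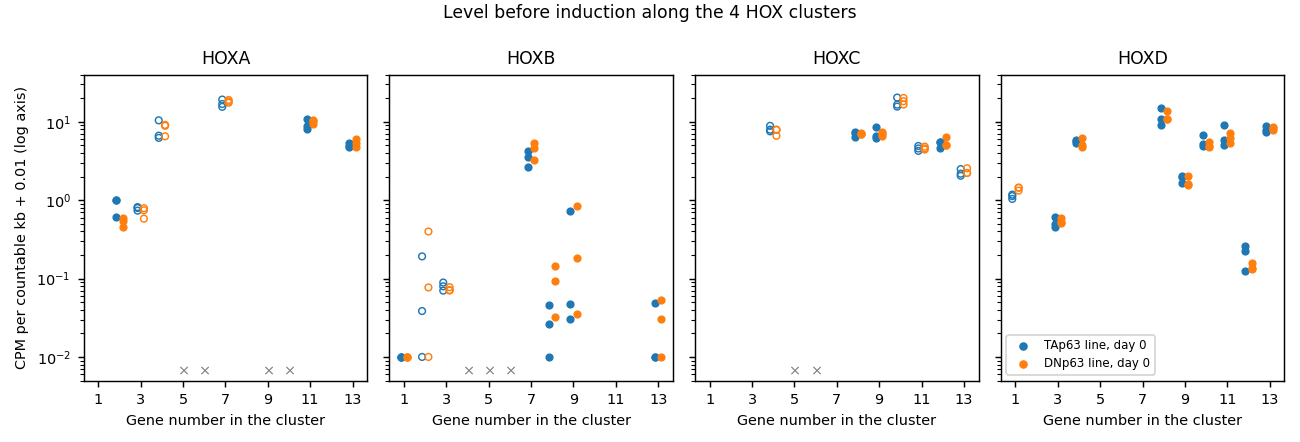
CPM per countable kilobase plus 0.01 (log axis) of the countable HOX genes reported here at day 0 against its number in the cluster, with 1 point per library, 3 per line. Open points mark genes with only part of their bases countable and grey crosses mark genes with none; HOXB members other than HOXB7 lie below 1, while HOXC10 and HOXA7 lie near 18.

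HOXC4 and HOXC10 had the highest CPM of the HOXC members. HOXC10, a posterior gene expressed in trunk and hindlimb, measured 96.7, 78.6 and 74.2 CPM at day 0 of the TAp63 line, 76.9, 67.4 and 65 at day 1, 74.0, 69.1 and 79.96 at day 3, and 70.6, 78.1 and 78.1 at day 6. In the DNp63 line it measured 86.9, 95.6 and 78.8 at day 0, 74.4, 72.6 and 19.9 at day 1, 75.1, 65.8 and 72.1 at day 3, and 72.0, 78.8 and 78.0 at day 6. Its DNp63 values at days 1 and 3 lay below those of day 0 in every library, and at day 6 the highest equalled the lowest of day 0 to 3 digits. HOXC4, the gene at the anterior end of the cluster, whose counts include a long intron, measured 183, 164 and 156 CPM at day 0 of the TAp63 line, 176, 153 and 133 at day 1, 136, 164 and 169 at day 3, and 161, 163 and 179 at day 6. The DNp63 line had 136, 164 and 162 CPM of it at day 0, 154, 150 and 59.6 at day 1, 161, 152 and 163 at day 3, and 141, 121 and 137 at day 6. Each later day of HOXC4 overlapped day 0 in either line, and at day 6 the DNp63 libraries lay below those of DNp63 day 3 and of TAp63 day 6.

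HOXC8, a gene of the thoracic level, measured 24.5, 27.6 and 27.1 CPM at day 0 of the TAp63 line, 24.2, 25.7 and 26.6 at day 1, 23.4, 26.1 and 30.5 at day 3, and 25.5, 28.4 and 27.3 at day 6. Its DNp63 values were 26.1, 26.7 and 27.2 at day 0, 24.4, 25 and 12.6 at day 1, 23.6, 22.9 and 25 at day 3, and 24.1, 24.1 and 27 at day 6. Over 23 libraries HOXC8 ranged from 22.9 to 30.5 CPM, a ratio of 1.33 that was the smallest of the 30 countable members. The next gene, HOXC9, measured 27.1, 19.5 and 20.9 CPM at day 0 of the TAp63 line, 24.2, 19 and 20.2 at day 1, 23.2, 17.5 and 22.2 at day 3, and 19.2, 21.9 and 21.8 at day 6. It had 21.1, 23.7 and 22.2 CPM at day 0 of the DNp63 line, 20.5, 21.4 and 9.93 at day 1, 22, 19.2 and 17.4 at day 3, and 20.7, 20.8 and 17.7 at day 6. With DNp63, HOXC8 lay below its day 0 in every library at days 1 and 3, and HOXC9 at day 6, while the lines overlapped at every day in either gene. The other HOXC members held 8.89 to 15.3 CPM (HOXC11), 14.2 to 26 (HOXC12) and 14.1 to 19.1 (HOXC13) in 23 libraries.

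In HOXD the highest member was HOXD8, with 44.8, 32.6 and 27.5 CPM at day 0 of the TAp63 line, 35.8, 28.5 and 29.1 at day 1, 44.4, 29.8 and 33.8 at day 3, and 36.5, 33.1 and 32.8 at day 6. The DNp63 line had 40.7, 32.4 and 32.0 CPM of HOXD8 at day 0, 38.6, 28.2 and 11.9 at day 1, 35.1, 28 and 26.8 at day 3, and 34.7, 29.3 and 27.8 at day 6. Replicate 1 was the highest library of HOXD8 in each of the 8 groups. HOXD13, the digit and genital gene at the end of the cluster whose start region is printed above, measured 23.6, 28.6 and 25.1 CPM at day 0 of the TAp63 line, 24.9, 23.3 and 26 at day 1, 26.1, 23.1 and 23.2 at day 3, and 22.6, 26.6 and 19.9 at day 6. With DNp63 it measured 27.8, 25 and 27 at day 0, 20.2, 23.8 and 3.97 at day 1, 19.2, 20.7 and 20.7 at day 3, and 18.4, 25.1 and 28.7 at day 6. Its DNp63 libraries at days 1 and 3 lay below those of day 0, and at day 6 the range took in that of day 0.

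HOXD11, which with HOXA11 patterns the forearm and kidney, measured 22.5, 14.4 and 12.6 CPM at day 0 of the TAp63 line, 19.6, 13 and 9.31 at day 1, 16, 11.6 and 14.1 at day 3, and 16.5, 11.4 and 12 at day 6. In the DNp63 line HOXD11 had 17.5, 15.3 and 13.1 CPM at day 0, 19.6, 14.3 and 7.94 at day 1, 18.9, 13.8 and 14.4 at day 3, and 18.8, 16.2 and 16.3 at day 6. Its days overlapped in either line, and replicate 1 was again the highest library in each group. Of the other HOXD members, HOXD1 held 1.47 to 3.27 CPM, HOXD3 6.42 to 11.2 and HOXD4 6.42 to 10.6 in 23 libraries.

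In HOXA the highest countable member was HOXA11, with 33.1, 43.5 and 36.2 CPM at day 0 of the TAp63 line, 48.6, 62.2 and 42.5 at day 1, 48.4, 44.8 and 50.7 at day 3, and 42.2, 46.6 and 46.8 at day 6. Its DNp63 libraries held 38.3, 43.4 and 41.2 CPM at day 0, 45.4, 50.9 and 5.96 at day 1, 43.4, 45.3 and 35.8 at day 3, and 31.9, 39.3 and 44.8 at day 6. Day 3 of the TAp63 line lay above day 0 in every library, and with all libraries no other day of HOXA11 was separate from its day 0. Without replicate 3, DNp63 day 1 (45.4 and 50.9 CPM) lay above its day 0 as well. HOXA7, counted over 25.26% of its span, measured 14.3, 12.6 and 11.6 CPM at day 0 of the TAp63 line, 17.2, 14.4 and 11.7 at day 1, 16.5, 12.9 and 12.2 at day 3, and 15.1, 15.6 and 12.5 at day 6. With DNp63 it had 14.1, 13.5 and 13.1 CPM at day 0, 11.4, 14.4 and 5.30 at day 1, 17.8, 15.6 and 16.4 at day 3, and 15.4, 12.5 and 17.2 at day 6. Day 3 of the DNp63 line was above its day 0 in every library of HOXA7, and day 6 overlapped it. HOXA3 (8.97 to 13.5 CPM) and HOXA13 (23.1 to 34.9) spanned ratios of 1.5 and 1.51 over 23 libraries.

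**Figure D2:**
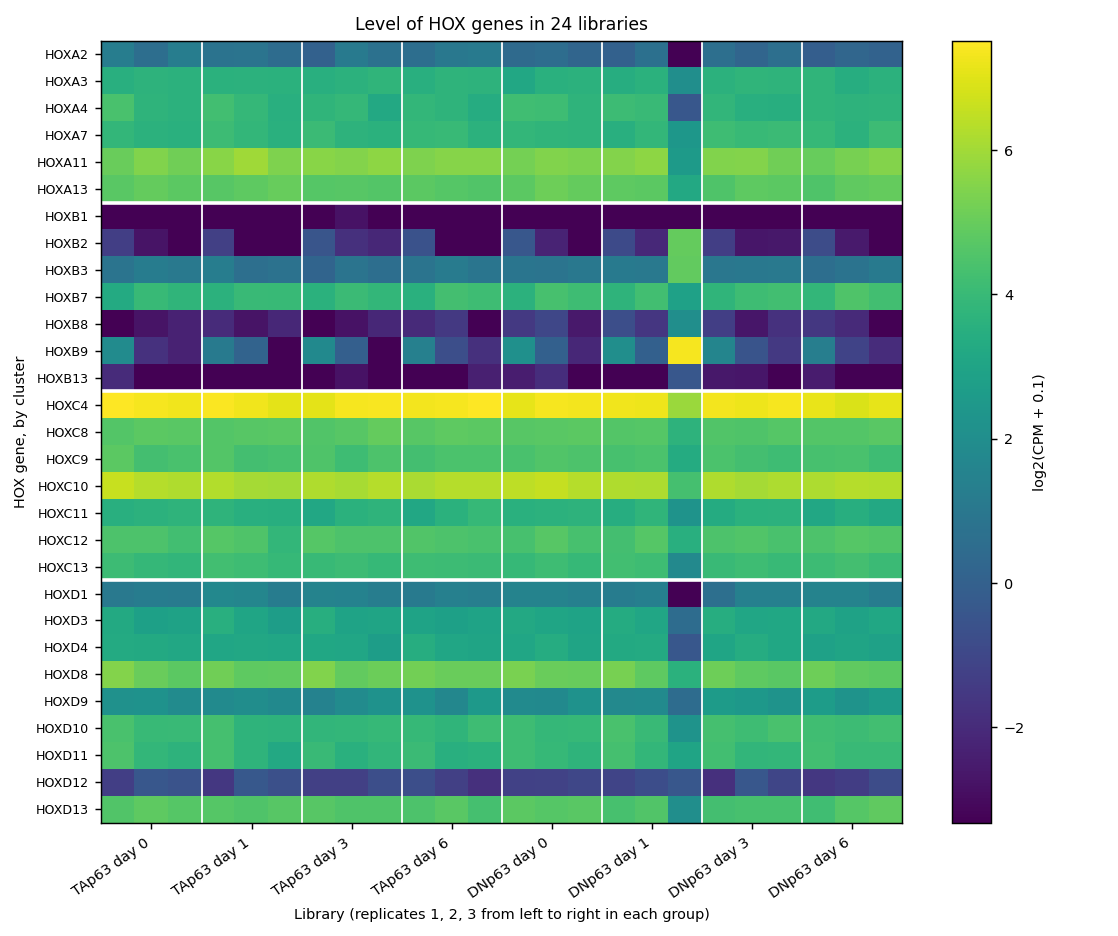
Colour shows log2(CPM + 0.1) of the countable HOX genes reported here (rows, by cluster) in the 24 libraries (columns, by group, replicates 1 to 3 from left to right). Columns of different days look alike except replicate 3 of DNp63 day 1, in which HOXB2, HOXB3 and HOXB9 are higher and nearly all genes of the other clusters lower; HOXC4 and HOXC10 are the brightest rows elsewhere.

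The comparison of days asks whether HOX levels moved when p63 was induced, with EPZ-6438 possibly present as well. The libraries are bulk RNA, in which fewer cells of a type and less RNA per cell cannot be told apart. No member was called at any day of either line (edgeR quasi-likelihood test, Benjamini-Hochberg adjusted p under 0.05), and 25 members could be tested. In the TAp63 line 0 of 25 were called at day 1, 0 at day 3 and 0 at day 6, where 0.121%, 0.435% and 0.441% of the 15642 genes tested were called. In the DNp63 line the counts were also 0 of 25 at days 1, 3 and 6, against 0.0959%, 2.2% and 2.03% of all genes. At these backgrounds few or no calls among 25 genes would be usual, and the 0 does not set HOX genes apart. At an unadjusted p under 0.05 there were 0, 0 and 0 members in the TAp63 line, against 1.98%, 4.68% and 4.09% of all genes. In the DNp63 line there were 4, 0 and 1, against 12.2%, 12.3% and 9.33% of all genes. The 4 at DNp63 day 1 were HOXB3, HOXB9, HOXC10 and HOXD13, and replicate 3 of that group held the extreme value of each. DESeq2 called 0 members with TAp63 (0.192%, 0.774% and 0.658% of all genes) and at days 3 and 6 with DNp63 (3.82% and 3.22%), and at day 1 it called HOXB3 (3.2%). The median log2 change of the 25 at day 6 was -0.02 with TAp63 and -0.09 with DNp63, beside -0.01 and -0.01 over all genes.

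With the replicate number as a block in the fit, 0 of 25 members were called in the TAp63 days (0.166%, 0.901% and 0.78% of all genes), the DNp63 days (0.185%, 6.89% and 4.56%), any TAp63 change (1.11%), the lines at day 0 (0.0384%), the lines averaged over days (2.81%) or the difference of the day 6 responses (0.166%). The intervals say how much could have been missed in the fit of all 24 libraries without the block. They do not use the pairing by number, and replicate 3 of DNp63 day 1 is part of their spread. At day 6 the 95% interval of the change excluded a 2-fold difference in either direction for 22 of 25 members with TAp63 and 20 of 25 with DNp63. The exceptions with TAp63 were HOXA4, HOXB3 and HOXB9, and with DNp63 the same 3 genes, HOXA2 and HOXD9. HOXC4 differed from day 0 by 0.01 (interval -0.43 to 0.44) with TAp63 and -0.22 (-0.65 to 0.22) with DNp63 on the log2 scale. HOXD8 differed by -0.02 (-0.53 to 0.48) and -0.19 (-0.70 to 0.31). HOXB9, with few counts and libraries that differed widely, had intervals of -3.51 to 3.86 and -4.19 to 2.81, so that nothing within that span can be told. The estimates over members ran from -0.29 (HOXD11) to 0.30 (HOXB7) with TAp63 and from -0.69 (HOXB9) to 0.54 (HOXD9) with DNp63.

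**Figure D3:**
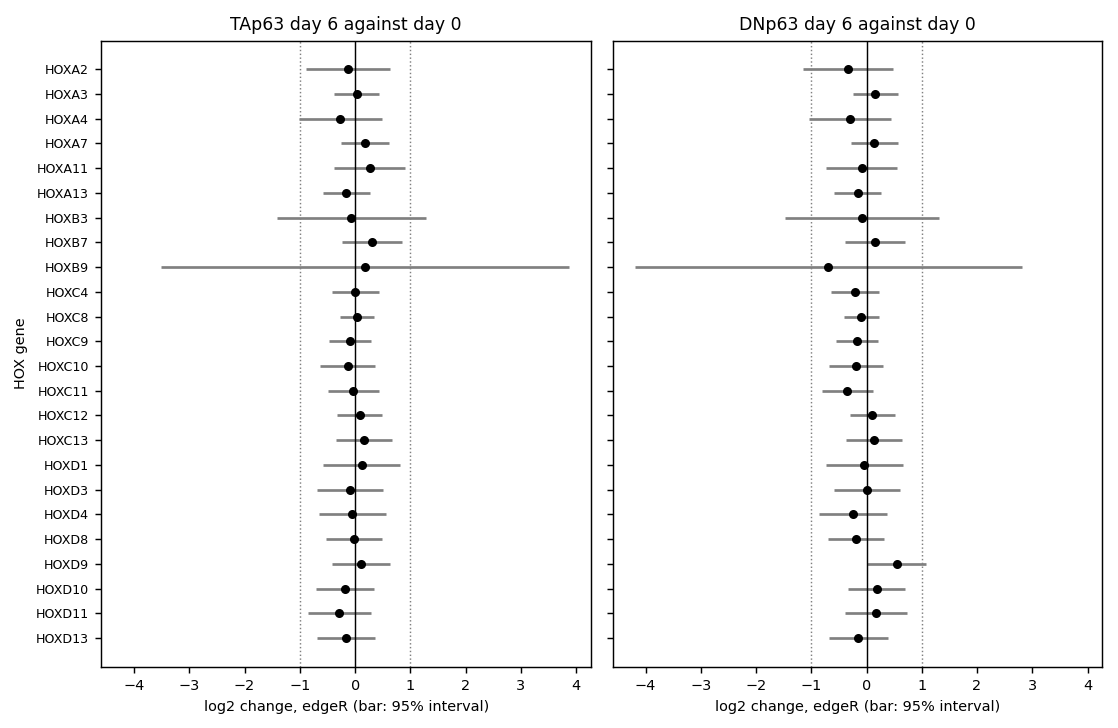
Points give the log2 change of day 6 against day 0 of the tested HOX genes reported here in the TAp63 line (left) and the DNp63 line (right). Bars give the 95% interval from edgeR (all 24 libraries, no block), and dotted lines a 2-fold difference. Bars reach past a dotted line for 3 genes on the left and 5 on the right, and that of HOXB9 is the widest.

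The lines were also compared with each other. At day 0 no member was called (0 of 25, against 0.0128% of all genes), and averaged over the 4 days again 0 of 25 (1.52% of all genes). The difference between the lines' day 6 responses gave 0 of 25 (0.0831% of all genes). DESeq2 called 0 members in these 3 comparisons (0.0511%, 2.32% and 0.224% of all genes). At an unadjusted p under 0.05 there were 0, 1 (HOXA2) and 0 members, against 0.946%, 9.27% and 2.7% of all genes. The largest difference at day 0 by a member other than HOXB9 was that of HOXA2, -0.71 ± 0.371 (SE) on the log2 scale, DNp63 minus TAp63 (edgeR adjusted p = 1.00).

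Some members were called when replicate 3 of DNp63 day 1 was left out and the replicate number was kept as a block, in a fit that called many more genes overall. At day 3 of DNp63 it called 3 of 25 members, all lower, where 23.5% of all genes were called. They were HOXA4, a hindbrain and upper trunk gene (-0.43 ± 0.123, edgeR adjusted p = 0.0118, lower in 3 of 3 numbered pairs), HOXD13 (-0.40 ± 0.117, edgeR adjusted p = 0.0144, 3 of 3 pairs) and HOXC10 (-0.30 ± 0.0909, edgeR adjusted p = 0.0180, 3 of 3 pairs). The share of members is below that background. With all libraries and no block the same estimates were -0.43, -0.40 and -0.30, with edgeR adjusted p of 0.751, 0.620 and 0.737. At day 6 this fit called 0 of 25 members, with 14.1% of all genes called. At an unadjusted p under 0.05 there were 8 of 25 members, against 25.9% of all genes. It also called 0 of 25 at the TAp63 days (0.887%, 4.57% and 3.6% of all genes), at DNp63 day 1 (0.849%), for any TAp63 change (6.55%), for the lines at day 0 (0.171%) and for the difference of the day 6 responses (1.87%). HOXA4 had 20.8, 13.2 and 12.4 CPM at day 0 of the TAp63 line, 18.8, 14.7 and 11.4 at day 1, 13.3, 14.7 and 9.24 at day 3, and 14.4, 13.2 and 10.4 at day 6. In the DNp63 line it had 18.2, 17.7 and 13 at day 0, 17, 16 and 0.662 at day 1, 13.9, 11.4 and 10.9 at day 3, and 13.6, 12.9 and 13.3 at day 6. The 3 values of DNp63 day 3 (mean 12.1) overlapped those of day 0 (mean 16.3), and each was lower than the day 0 value of its number.

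HOXD9, a lumbar and hindlimb gene, had all its DNp63 libraries of days 3 and 6 above those of day 0. It measured 3.54, 3.46 and 4.46 CPM at day 0, 3.33, 3.58 and 1.32 at day 1, 6.05, 5.41 and 4.64 at day 3, and 6.23, 4.67 and 5.84 at day 6. The TAp63 line had 4.31, 4.49 and 3.61 CPM of it at day 0, 3.5, 3.83 and 3.41 at day 1, 2.69, 3.63 and 4.49 at day 3, and 4.49, 3.12 and 5.74 at day 6, and its days overlapped. The DNp63 difference was 0.49 ± 0.249 at day 3 and 0.54 ± 0.253 at day 6 in log2 units (edgeR adjusted p = 0.453 and 0.508, higher in 3 of 3 numbered pairs each). The test of any change over days 1, 3 and 6 of DNp63 called it only with the block and without that library (edgeR adjusted p = 0.0335). HOXA4 (edgeR adjusted p = 0.0378) was the other of the 2 members called there, where 21.7% of all genes were called. The day 6 response of HOXD9 differed between the lines by 0.44 ± 0.358 (edgeR adjusted p = 1.00).

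The same fit, averaged over the 4 days, called 3 of 25 members between the lines where 8.26% of all genes were called. At this background a few calls among 25 genes would be usual. The 4 days are day 0, before induction, and days 1, 3 and 6. The average therefore mixes a standing difference between the engineered lines with differences that arose after induction. HOXB7, the highest of HOXB, was 0.23 ± 0.0513 higher in the DNp63 line in log2 units (edgeR adjusted p = 0.00286) and higher in 11 of 11 numbered pairs. It measured 9.85, 15.9 and 13.4 CPM at day 0 of the TAp63 line, 12.3, 16.1 and 15.7 at day 1, 12.2, 16.8 and 14.5 at day 3, and 11.7, 19.6 and 17.7 at day 6. The DNp63 line had 12.3, 20.4 and 17.7 at day 0, 13.3, 18.9 and 7.28 at day 1, 13.6, 17.6 and 18.6 at day 3, and 14.5, 22.9 and 18.8 at day 6. Each day's groups overlapped between the lines, and the replicate 1 libraries were the lowest of their group in every group but DNp63 day 1. HOXA2, a hindbrain gene, was lower in the DNp63 line by -0.54 ± 0.151 (edgeR adjusted p = 0.0226, lower in 10 of 11 pairs). It held 2.31, 1.40 and 2.33 CPM at day 0 of the TAp63 line, 1.63, 1.68 and 1.31 at day 1, 0.931, 2.09 and 1.54 at day 3, and 1.43, 1.94 and 2.13 at day 6. In the DNp63 line it held 1.23, 1.36 and 1.05 at day 0, 0.940, 1.49 and 0 at day 1, 1.47, 1.06 and 1.44 at day 3, and 0.857, 1.08 and 0.947 at day 6. The lines did not overlap at days 0 and 6 and did at days 1 and 3.

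HOXD10, the neighbour of HOXD9 and HOXD11, was the third, at 0.20 ± 0.0613 (edgeR adjusted p = 0.0458, higher in the DNp63 line in 8 of 11 pairs). It measured 21.1, 15.6 and 16.2 CPM at day 0 of the TAp63 line, 19.6, 13.3 and 12.6 at day 1, 14.1, 14.5 and 15.1 at day 3, and 15.3, 13.6 and 17.4 at day 6. In the DNp63 line it measured 17.5, 14.9 and 15.3 at day 0, 21.3, 16 and 4.63 at day 1, 19.9, 17.5 and 20.9 at day 3, and 18.3, 17.2 and 18.6 at day 6. Only at day 3 were the lines separate. With all libraries and no block the differences of HOXB7, HOXA2 and HOXD10 were 0.18, -0.59 and 0.14 (edgeR adjusted p = 0.819, 0.186 and 0.878). At day 0 alone, before induction, they were 0.35, -0.71 and -0.14 in that fit, and none was called.

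HOXB9 and HOXB3 were the members called with all libraries, in the test of any change over days 1, 3 and 6 of DNp63 (edgeR adjusted p = 0.0354 and 0.0487; 2 of 25, against 5.55% of all genes). The test of any change in the TAp63 line called 0 of 25 (0.543% of all genes), with 0 members under an unadjusted 0.05 (4.01% of all genes) and 0 called by DESeq2 (1.19%). HOXB9, a trunk gene, measured 4.28, 0.908 and 0.131 CPM at day 0 of DNp63, 3.98, 0.905 and 165 at day 1, 2.99, 0.613 and 0.251 at day 3, and 2.41, 0.359 and 0.158 at day 6. The TAp63 libraries held 3.70, 0.193 and 0.106 at day 0, 2.1, 0.982 and 0 at day 1, 3.41, 0.861 and 0 at day 3, and 2.57, 0.50 and 0.185 at day 6. A single library, replicate 3 of DNp63 day 1, held 249 counts of HOXB9 and lay above all others. HOXB3 measured 1.73, 1.70 and 1.90 CPM at day 0 of DNp63, 2.1, 1.99 and 29.8 at day 1, 1.89, 1.90 and 2.01 at day 3, and 1.40, 1.65 and 2.05 at day 6. With TAp63 it measured 1.69, 2.22 and 1.96 at day 0, 2.33, 1.45 and 1.57 at day 1, 1.03, 1.68 and 1.41 at day 3, and 1.71, 2.19 and 1.76 at day 6. The same library was again the only one above 2.33 CPM.

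At DNp63 day 1 the log2 difference was 4.96 ± 1.67 for HOXB9 and 2.37 ± 0.682 for HOXB3 (edgeR adjusted p = 0.194 and 0.152; DESeq2 called HOXB3, adjusted p = 0.00944, where it called 3.2% of all genes). Without that library the differences were 0.47 and 0.20, and the adjusted p of any change was 1.00 for either gene. The call of HOXB9 was also lost without replicate 2 or 3 of DNp63 day 0, 3 or 6, each in turn (edgeR adjusted p = 0.0599 to 0.0761). That of HOXB3 was lost without any single library of those days (0.0726 to 0.0868). The block kept HOXB9 (edgeR adjusted p = 0.0222, with 9.31% of all genes called) and not HOXB3 (0.0756). DESeq2 called both in the test of any change, with 10.4% of all genes called.

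The library that stood apart differed in every cluster. The summed level of the countable HOXB members was 238 CPM in it, against 15.6 to 25.1 in the other 23. The sums of HOXA, HOXC and HOXD were 35.1, 121 and 32.4 CPM, against 119 to 155, 285 to 382 and 97.9 to 138. Beside HOXB9 and HOXB3 it held 31.1 CPM of HOXB2 (0.658 at most elsewhere), 3.97 of HOXB8 (0.506 at most) and 3.31 of HOXB-AS1 (0.143 at most). HOXB7 was the opposite: 7.28 CPM there, below all 23 others. HOXA4 and HOXD4 had 1 count each in it and HOXA2 and HOXD1 none. Markers of erythroid cells moved with this: the sum of 14 listed markers, 9 of them at 1 CPM or more at day 0 and AHSP at 0, was 4248 CPM there and 7.21 to 94.5 in the other 23. The fetal globin gene HBG2 alone had 1719 CPM. The fibroblast list, with THY1 at 0 at day 0, summed to 856 CPM there, of which VIM had 831, and to at most 72.0 elsewhere, and the neuroendocrine list to 358, against 659 to 894. Their part in the HOX values of this library was not tested.

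The replicate number separated HOXB9 and HOXB2 in the other 23 libraries too. HOXB9 was at 2.1 to 4.28 CPM in the 8 libraries numbered 1, at 0.193 to 0.982 in the 8 numbered 2 and at 0 to 0.251 in the 7 numbered 3, with no overlap between libraries 1 and either other number. HOXB2 was at 0.305 to 0.658 in libraries numbered 1 and at most 0.181 and 0.128 in the others. HBG2 ran in the same order, at 13.4 to 30.6, 0.647 to 6.89 and 0.131 to 0.947 CPM, as did the erythroid sum, at 49.7 to 94.5, 9.85 to 27.2 and 7.21 to 11.8. Of the 30 countable members, 4 (HOXA4, HOXB2, HOXB9 and HOXD8) had every library numbered 1 above every library numbered 3, and 0 had the reverse. How many of all genes were ordered by number was not counted, and same-numbered libraries deviated together across genes. The 4 therefore do not set HOX genes apart. HOXB3 showed no such order (1.03 to 2.33, 1.45 to 2.22 and 1.41 to 2.05 CPM), and the numbers overlapped for HOXB1, HOXB8 and HOXB13 as well. HOXB7 went the other way between numbers 1 and 2 (9.85 to 14.5 and 15.9 to 22.9 CPM), with number 3 at 13.4 to 18.8. HOXD8 was at 34.7 to 44.8 CPM in number 1 and at most 33.1 and 33.8 in the others. Yet HOXD8 and HOXA4 were low, at 11.9 and 0.662 CPM, in replicate 3 of DNp63 day 1, where HBG2 was highest. At days 0, 1, 3 and 6 replicate 1 of DNp63 held 4.28, 3.98, 2.99 and 2.41 CPM of HOXB9 beside 30.6, 30.1, 19.5 and 18 of HBG2. Replicate 1 of TAp63 held 3.70, 2.1, 3.41 and 2.57 CPM of HOXB9 beside 24.5, 13.4, 29.6 and 15.6 of HBG2. The part of the erythroid signal in the level of HOXB9 was not tested, and what a number stands for is not given in the sources used here.

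**Figure D4:**
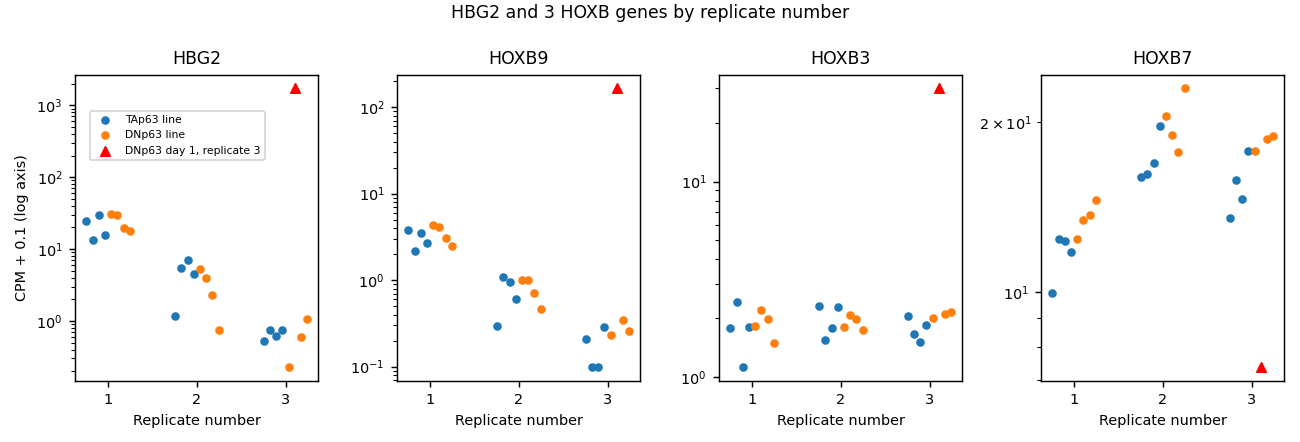
CPM plus 0.1 (log axes that differ between panels) of the globin gene HBG2 and of HOXB9, HOXB3 and HOXB7 in each library against its replicate number, blue for the TAp63 line, orange for the DNp63 line and a red triangle for replicate 3 of DNp63 day 1. HBG2 and HOXB9 are highest in number 1 and lowest in number 3 apart from the triangle, at 1719 and 165 CPM; HOXB7 has the triangle below all other libraries.

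Of the untested members, 4 were near 0 or below 1 CPM in nearly every library. HOXB1, the anterior gene whose start region is printed above, had 1 count over the 24 libraries, in TAp63 day 3. Its 3 DNp63 day 6 libraries held 0 counts, which at their summed depth allows up to 0.0887 CPM (3 counts over the group), and in the other groups with 0 counts the limit was 0.0612 to 0.0812 CPM. HOXB13, a gene of the tail end and prostate, had 11 counts in 9 libraries. HOXB8 had 58 counts, 3 of them at day 0 and 6 at day 6 of TAp63, and 11 and 5 of DNp63. HOXD12 had a count in all 24 libraries and ranged from 0.183 to 0.701 CPM in 23 of them. Pooled over its 3 libraries HOXD12 was at 0.585 CPM at day 0 and 0.343 at day 6 with TAp63 (95% Poisson intervals 0.385 to 0.851 and 0.188 to 0.576), and at 0.348 and 0.296 with DNp63 (0.199 to 0.566 and 0.142 to 0.544). The intervals overlap, cover counting error only and give no test between days. Together with HOXB2 these are the 5 countable members that the expression filter left out. Without that filter HOXB2 was called for any DNp63 change (edgeR adjusted p = 0.0295, with 3.88% of all genes called), with 47 of its 106 counts in replicate 3 of DNp63 day 1.

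Among the other transcripts of the clusters, an antisense RNA at the posterior end of HOXC rose with DNp63. HOXC13-AS (chromosome 12, 53935328 to 53939643, minus strand, overlapping the start of HOXC13 and counted over 3503 of its 4316 bases) measured 0, 0.170 and 0.262 CPM at day 0 of DNp63, 0.361, 0.679 and 0 at day 1, 0.794, 1.17 and 1.75 at day 3, and 1.56, 2.01 and 1.11 at day 6. The TAp63 line had 0.308, 0.387 and 0.530 at day 0, 0.156, 0.514 and 0.393 at day 1, 0.103, 0.589 and 0.770 at day 3, and 0.143, 0.187 and 0.370 at day 6. All libraries of DNp63 days 3 and 6 lay above day 0, while the TAp63 days overlapped. The DNp63 log2 change was 2.95 ± 0.656 at day 3 and 3.31 ± 0.660 at day 6 (edgeR adjusted p = 0.0172 and 0.00683), on 7, 62 and 55 counts at days 0, 3 and 6, so the size is imprecise. With TAp63 the day 6 difference was -0.89 ± 0.690 (edgeR adjusted p = 1.00). The response at day 6 differed between the lines by 4.20 ± 0.959 with an edgeR adjusted p of 0.148, which was 0.0378 with the replicate block, 0.00172 with the block and without replicate 3 of DNp63 day 1, and 0.0479 by DESeq2. The day 3 call was lost without replicate 1 or 2 of DNp63 day 0 or replicate 2 or 3 of DNp63 day 3, each in turn (edgeR adjusted p = 0.0524 to 0.0953). The day 6 call was lost when replicate 1 was left out of every group (0.0651).

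HOXC13, the hair and nail gene that lies beside it, was not called. It had 15.3, 17.5 and 15.2 CPM at day 0 of DNp63, 18.6, 17.8 and 3.31 at day 1, 16, 17.4 and 15.8 at day 3, and 17.1, 19.1 and 16.7 at day 6. With TAp63 it had 17.1, 14.9 and 14.1 at day 0, 18.5, 17.9 and 15.1 at day 1, 15.7, 17.3 and 15.1 at day 3, and 17.8, 17.1 and 16.5 at day 6. With all libraries the days overlapped in either line. Without replicate 3, DNp63 day 1 (18.6 and 17.8 CPM) lay above its day 0. The day 6 difference with DNp63 was 0.14 (interval -0.36 to 0.64, edgeR adjusted p = 1.00). Counting without strand means that reads from the 2 genes cannot be told apart by strand, and fragments within their overlap were given to neither. Of 28 listed non-coding transcripts of the clusters, 25 were in the table and 13 were tested, and HOXC13-AS was the only call in the 6 comparisons with day 0, where 0.0959% to 2.2% of all genes were called. HOTAIR, which binds PRC2 and is transcribed from HOXC, held 4.49 to 9.70 CPM in 23 libraries, HOTTIP of HOXA 0.902 to 2.63 and HOTAIRM1 30.1 to 53.8.

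**Figure D5:**
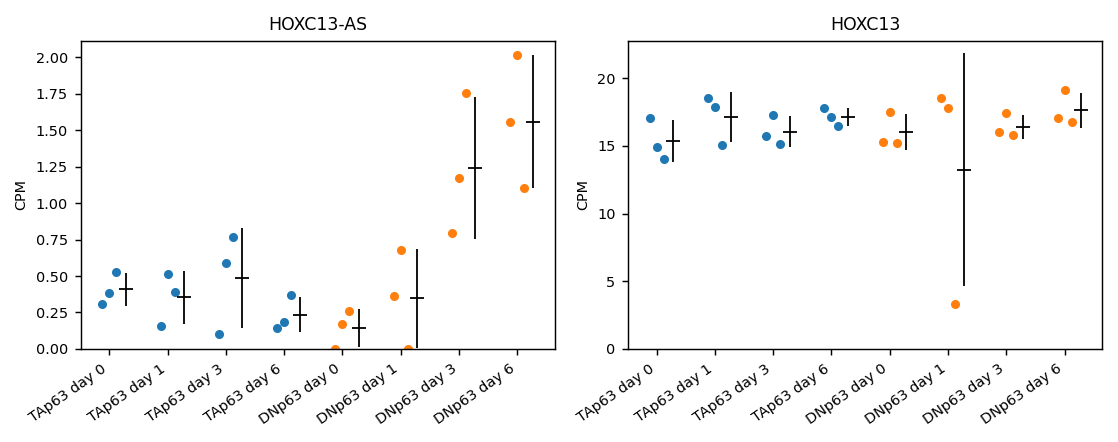
CPM (linear axes) of the antisense transcript HOXC13-AS (left) and of HOXC13 (right) in each library by line and day, with the mean and SD of 3 libraries beside the points. HOXC13-AS lies between 0.794 and 2.01 CPM at days 3 and 6 of DNp63 and at 0.770 or below in the other groups; HOXC13 shows no such step, and its low point is replicate 3 of DNp63 day 1.

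Cofactors and regulators of HOX genes were listed as well, and those lists were chosen with earlier results of these data known. Of 9 PBX, MEIS and related cofactor genes 7 were tested and 0 were called in any comparison of days or lines. In these comparisons 0.0128% to 5.55% of all genes were called, so few or no calls among 7 genes would be usual. PBX3, MEIS1 and MEIS2 held 84.2 to 115, 49.5 to 72.0 and 39.2 to 55.2 CPM in 23 libraries. Of 13 PRC2 genes 12 were tested, of 17 PRC1 genes 16 and of 14 trithorax and MLL genes 14, and 0 of each were called against day 0 in either line, where 0.0959% to 2.2% of all genes were called. EZH2, the enzyme that EPZ-6438 inhibits, measured 205, 195 and 191 CPM at day 0 and 197, 158 and 149 at day 6 of TAp63, and 198, 162 and 182 at day 0 and 186, 164 and 156 at day 6 of DNp63. Its day 6 differences were -0.23 and -0.10 in log2 units (edgeR adjusted p = 1.00 each), and the groups overlapped. At day 3 of TAp63 EZH2 was called with the block and without replicate 3 of DNp63 day 1 only (-0.26, edgeR adjusted p = 0.0362). The demethylase genes KDM6A and KDM6B held 80.3 to 104 and 103 to 199 CPM in 23 libraries and were not called. EZH1, the other PRC2 methyltransferase, differed by -0.32 at day 6 of DNp63 with an edgeR adjusted p of 0.105, or 0.0288 with the replicate block. It was called between the lines averaged over days, at -0.20 ± 0.0477 (edgeR adjusted p = 0.0381), a call lost in 21 of 31 alternatives, 19 of them fits that left out 1 library (edgeR adjusted p up to 0.484).

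Retinoic acid, the classic inducer of HOX genes through its receptors, had 12 of 17 listed genes tested. At day 6 of DNp63 1 fell and 1 rose, where 2.03% of all genes were called. STRA6, the retinol transporter, went from 40.7, 43.5 and 37.7 to 22.3, 22.2 and 19.3 CPM (-0.93 ± 0.215, edgeR adjusted p = 0.0212), and RARG, a retinoic acid receptor, from 23.1, 26.6 and 22.6 to 37.5, 34.3 and 42.0 CPM (0.65 ± 0.149, edgeR adjusted p = 0.0205). The groups of either gene did not overlap. The call of STRA6 was lost without any 1 of the 6 libraries of those groups (edgeR adjusted p = 0.0504 to 0.114), and that of RARG without replicate 1 or 3 of either day (0.0742 to 0.121). With the block and without replicate 3 of DNp63 day 1 the adjusted p was 1.10e-06 and 2.91e-05. Their responses differed between the lines by -0.67 and 0.60, with edgeR adjusted p of 1.00 and 0.957, or 0.0185 and 0.0192 in that fit. CRABP2, which carries retinoic acid to its receptors, went from 32.7, 29.5 and 22.3 CPM at day 0 to 18.8, 17.3 and 9.93 at day 1, 44.5, 28.2 and 34.2 at day 3 and 63.5, 46.1 and 39.6 at day 6 of DNp63. The TAp63 line had 31.4, 21.5 and 19.6 CPM of CRABP2 at day 0, 22.1, 15.2 and 12.6 at day 1, 27, 36.8 and 32 at day 3 and 37.9, 35.5 and 35.7 at day 6, also all above day 0 at day 6. The day 6 responses differed between the lines by 0.22 ± 0.338 (edgeR adjusted p = 1.00). For any TAp63 change its edgeR adjusted p was 0.116, or 0.00431 with the replicate block. It was called for any DNp63 change (edgeR adjusted p = 0.00331) and at day 6 with the replicate block only (0.00799, against 0.0865 without). ALDH1A2, which makes retinoic acid, was called for any DNp63 change (edgeR adjusted p = 0.0377) with 389 CPM in replicate 3 of day 1 and at most 8.01 in the other 23 libraries; with the block and without that library its adjusted p was 0.133. The 6 ParaHox genes listed, relatives of the HOX genes outside the clusters, were too low to test, and CDX2, the intestinal one, did not exceed 0.244 CPM in 23 libraries. Of 10 genes that flank the clusters 6 were tested and 0 were called in the 6 comparisons with day 0 or between the lines, where at most 2.2% of all genes were called.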

How the data were processed

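RNA was sequenced from 24 libraries of 8 groups. The deposited values are raw fragment counts per gene; per the file headers the authors counted with featureCounts 2.0.0 over whole transcripts of the hg38 RefSeq table, in pairs and without strand, while the submitters' processing notes name HISAT2 2.1.0, featureCounts 1.6.1 and DESeq2. Counts were tested with edgeR 4.0.16 in R 4.3.3 (TMM scaling, filterByExpr by group, quasi-likelihood test, 1 model of all 24 libraries, Benjamini-Hochberg over 15642 genes). CPM used TMM-adjusted totals. The HOX members and all lists were chosen with earlier results of these data known. Members called in any comparison, or in the blocked fit without replicate 3 of DNp63 day 1, and the 10 highest per countable kilobase are given in every library; listed genes outside the family are named where called, with a few fixed regulators, and other transcripts only by range. Same-numbered libraries deviated together in all 8 comparisons without DNp63 day 1 (r across genes 0.228 to 0.687) and not with it (lowest -0.286), so the numbers were taken to pair the libraries; what they mark is not given. Alternatives were DESeq2 1.42.0, RLE size factors, 2 other filters, a replicate block, smaller fits and leaving out libraries. The tests were tried on simulated counts. edgeR intervals include the spread between libraries; Poisson intervals and limits cover counting error only. A few measured genes are not reported here by name, although they stay in the fits and counts.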

Additional observations from a re-analysis of the deposited data

How the results depend on the processing

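The number of HOX members called was 0 under every alternative run in the 3 TAp63 comparisons with day 0, any TAp63 change, DNp63 day 6, the lines at day 0 and the difference of the day 6 responses. The 25 members at 1 CPM or more at day 0 stayed 25 at 0.5 CPM and were 22 at 2 CPM. At DNp63 day 1 DESeq2 called 1 and leaving out single libraries gave 0 to 2. At DNp63 day 3 and between the lines averaged over days, the replicate block without replicate 3 of DNp63 day 1 called 3 each. For any DNp63 change (2 called) the replicate block gave 1, a fit of only the libraries compared 0, no expression filter 3 (with HOXB2), leaving out single libraries 0 to 2, and leaving out replicate 1 of every group, chosen after seeing the data, 1. The block by itself changed no other call of a member. The difference of HOXB9 at DNp63 day 1 turned from 4.96 to -0.046 with the block and without replicate 3; that library held 249 of the counts. Of the values of named genes under alternatives, 325 kept their direction and side of the threshold, 63 lost a call, 15 gained one and 1 reversed. Over all genes the calls at DNp63 day 3 were 344, against 1078 with the block, 3712 with the block and without that library, 597 by DESeq2, 546 with only the libraries compared and 86 without replicate 1 of every group; at day 6 they were 318, against 714, 2221, 503, 494 and 93. A separate fit of only the libraries compared was not run for the lines averaged over days, which use all of them. Of the 5 members under 1 CPM, tested only without the filter, HOXB2 was called there in that comparison and the others in none.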
